A study of Chlamydomonas reinhardtii with 2 samples.

Results

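Stretches of the genome of the green alga Chlamydomonas reinhardtii that gave cDNA reads and that have similar copies elsewhere in the genome were collected from a library of nitrogen-replete cells. The members were chosen by the number of places that their reads have. Each read was placed where its score, the identity multiplied by the aligned share of the read, was highest, or at the first listed place where several scores were equal. A locus is a run of overlapping placed alignments on 1 sequence, on either strand. It entered the set when it held at least 3 reads and at least 50% of them had 2 to 5 places on the genome. This gave 174 loci, called members below, among 3851 loci with at least 3 reads (4.52%, 95% interval 3.88 to 5.22) and 14730 loci in all. They held 8994 of the 239585 aligned reads (3.75%, interval 3.68 to 3.83). These shares therefore describe the selection and are not findings.

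Genomes hold similar copies of a gene because genes are duplicated, and the copies, called paralogs, then gather differences. Tandem duplication leaves copies side by side, usually keeping their introns, whereas a copy made through reverse transcription of a messenger RNA lands elsewhere and lacks them. In coding sequence, many changes at the last position of a codon leave the protein as it was, so copies that still encode nearly the same protein differ mostly there. Introns and untranslated ends are under fewer constraints, and there the lengths and bases of copies usually drift apart sooner. A short read from a stretch without differences has equally good places at each copy, and its origin cannot be read from its bases.

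The cells were of strain dw15.1 (genotype cw15, nit2, mt+), kept in TAP medium, which contains acetate, in continuous light. After growth to 5000000 cells per mL they spent 48 hours in 50 mL of fresh medium with 10 mM ammonium. Total RNA was turned into SMART cDNA from a poly(A) primer, amplified by PCR, digested with SfiI, size-fractionated and sequenced on a 454 GS FLX Titanium. There was 1 library per condition, and the nitrogen-deprived library, made from the same culture after transfer to medium without nitrogen, was not analysed here. There is therefore no replicate error and no test between groups. All intervals are exact Clopper-Pearson 95% intervals. They cover the counting error alone, because copies made by PCR do not count molecules independently.

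Positions are those of the deposited alignments, and the genome build behind them is not named in the sources used here. Its sequences are numbered 1 to 17, and a further sequence is named NA, whose makeup is not given either. No genes, exons or untranslated regions are assigned, because the gene table at hand is of another build: on 11 of 16 sequences that could be compared, its genes ended past the end of the sequence. Base sequences of the loci are not printed, since no genome of that build was used here.

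Most members were thinly read, and a few held nearly all of the reads. The median was 5 reads (quartiles 3 and 8.75). A total of 53 members had exactly 3 reads, 133 had 3 to 9, 41 had at least 10, 16 had at least 50 and 2 had at least 1000. The largest, on sequence 6 at 7308778 to 7310439, held 4214 reads, which is 46.9% of all member reads, and the 3 largest together held 6269 (69.7%). Other loci with at least 3 reads had the same median of 5 reads (quartiles 3 and 11).

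Of the member reads, 5983 had 2 to 5 places, 1403 had a single place and 1608 had more than 5. All reads of 77 members had 2 to 5 places, and 17 members stood at exactly 50%. Just inside the limit among members with at least 100 reads were the loci on sequence 2 at 6041122 (51.7% of 120 reads), on sequence 6 at 1901720 (52.7% of 260) and on sequence 17 at 931191 (57.1% of 301). Just outside were those on sequence 12 at 7755013 (48.9% of 133 reads), on NA at 6688923 (47.2% of 3116) and on sequence 12 at 7646880 (44.8% of 603). The loci at 7755013 and 6688923 are copies of members described below, so the limit separates copies of the same family.

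The similarity of the copies ranged from complete to slight. Of the member reads, 1497 (16.6%, interval 15.9 to 17.4) were tied, which means that a place not overlapping the first had the same score, against 6.42% (interval 6.32 to 6.52) of the reads in other loci. In 90 members no read was tied, in 36 some were and in 48 all were. At least 50% of the reads were tied in 57 members (32.8%, interval 25.8 to 40.3), where 3.12% of all loci with at least 3 reads had that many. Because repeated places chose the members, nothing is read from that contrast. The median difference in score between the best and the next place of a read, per member, was 1.21 percentage points (quartiles 0 and 5.17). It was 0 at 57 members, above 0 and up to 5 points at 72, above 5 and up to 20 at 30, and above 20 at 15.

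**Figure D1:**
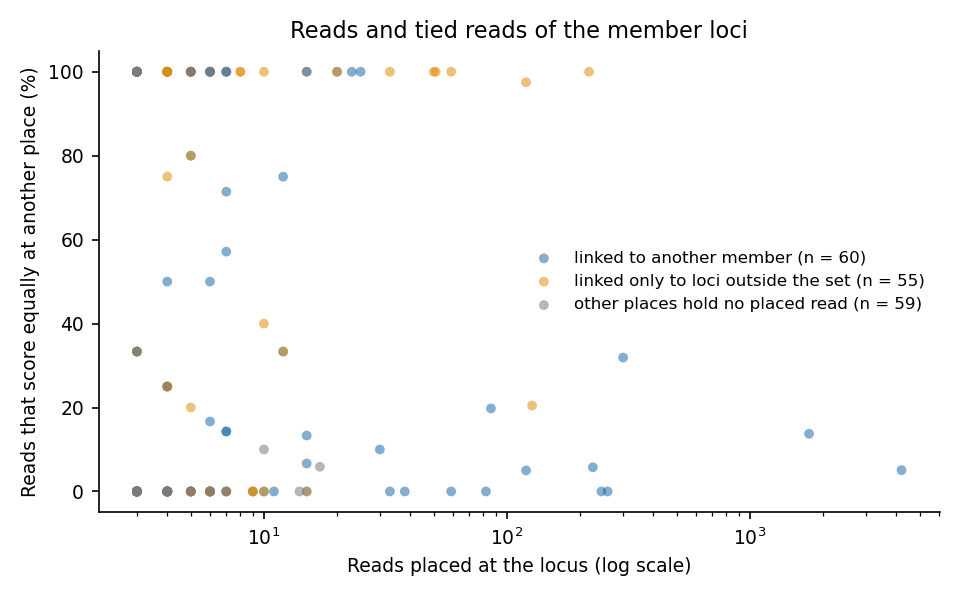
Each point is 1 of the 174 members, with its reads on a logarithmic horizontal axis and the percentage of its reads that score equally at another place on the vertical axis. Colours give the kind of link, and members with all reads tied reach up to 218 reads, while the member with 4214 reads has 5.08% tied.

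Tied reads were all given to the first listed place, so an identical copy of such a member can stand without a placed read by construction. The largest member of this kind lay on NA at 156948 to 158302. All of its 218 reads were also listed with an equal score, on the same strand, at 248700 to 250054 of NA, where no read was placed. On sequence 7 at 3035481, all 59 reads were tied, and 48 were listed at 3038666, a distance of 2308 bases past the end of the member. That place ended at 3039134. The next locus, at 3039143, held 33 placed reads and shared 14 with the member, 11 of them with equal scores. The stretch without placed reads thus lay beside a stretch with placed reads that is also similar to the member. On NA at 291048, all 50 reads had an equal place at 300787. Over all members, 100 had such a place without placed reads that at least 3 of their reads listed. The scores were equal there for 44 of these members by the median, and lower for 56.

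The members were linked when reads placed at a locus listed another locus among their other places. A total of 60 members (34.5%, interval 27.5 to 42.1) were linked to another member, 55 (31.6%) only to loci outside the set, and 59 (33.9%, interval 26.9 to 41.5) to no locus that held a placed read. The 60 formed 21 groups, of which 12 had 2 members, 4 had 3, 3 had 4 and 2 had 6. These groups held 7784 reads, 86.5% of the member reads, whereas the 59 unlinked members held 280. A single shared read was enough for a link, and 152 of the 351 linked pairs of loci had only 1, against 166 with at least 3. Of the 351 pairs, 44 joined members to each other.

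Among pairs with at least 3 shared reads, copies lay both side by side and on different sequences. On numbered sequences, 57 of 123 such pairs (46.3%, interval 37.3 to 55.6) lay on the same sequence, with a median distance of 8857 bases between the loci (quartiles 2785 and 26455). Of all 166 pairs, 48 (28.9%, interval 22.2 to 36.4) lay within 100 kb of each other on a numbered sequence, 9 lay farther apart on 1 sequence, 66 (39.8%, interval 32.3 to 47.6) lay on different numbered sequences and 43 involved NA. Of the 48 near pairs, 37 (77.1%, interval 62.7 to 88.0) had the same orientation. All 12 of these near pairs in which both loci were members did. Pairs are not independent, since 1 family or 1 transcript in pieces can give several. For example, a group of 6 members on sequence 17 gave several of the 12. The intervals in this paragraph take no account of this. With single-read links included, the share on the same numbered sequence was 72 of 258 (27.9%, interval 22.5 to 33.8).

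Members were found on all 18 sequences. Their share of the loci with at least 3 reads ran from 1.47% on sequence 11 (1 of 68 loci, interval 0.0372 to 7.92) to 12.1% on NA (36 of 298, interval 8.61 to 16.3). Sequences 14 (11.1%, 9 of 81) and 8 (10.4%, 10 of 96) had the highest shares among the numbered sequences, though both had wide intervals. The sequence NA held 20.7% of the members (interval 14.9 to 27.5), against 7.13% of the other loci (interval 6.31 to 8.01), where 7.74% of all loci with at least 3 reads lie on NA.

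Splicing, which the rule did not use, was seen in a smaller share of members than of other loci. A locus was called spliced when at least 1 read had a gap of at least 20 genome bases with a splice direction. This held for 56 of 174 members (32.2%, interval 25.3 to 39.7) and for 1772 of 3677 other loci (48.2%, interval 46.6 to 49.8), where 47.5% of all loci with at least 3 reads were spliced. A locus with more reads has more chances of a spliced read, so the shares were also taken by read number. With 3 to 4 reads, 22.4% of 85 members were spliced (interval 14.03 to 32.7), against 35.8% of 1645 other loci (interval 33.5 to 38.2). With 5 to 9 reads the shares were 27.1% of 48 (interval 15.3 to 41.8) and 42.4% of 1007 (interval 39.3 to 45.5). With 10 to 49 reads they were 52.0% of 25 (interval 31.3 to 72.2) and 66.0% of 683 (interval 62.3 to 69.6), and with at least 50 reads 68.8% of 16 (interval 41.3 to 89.0) and 89.2% of 342 (interval 85.4 to 92.3). The member share was the lower in each class, but the intervals overlapped in 3 of the 4 classes, all but that of 3 to 4 reads.

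**Figure D2:**
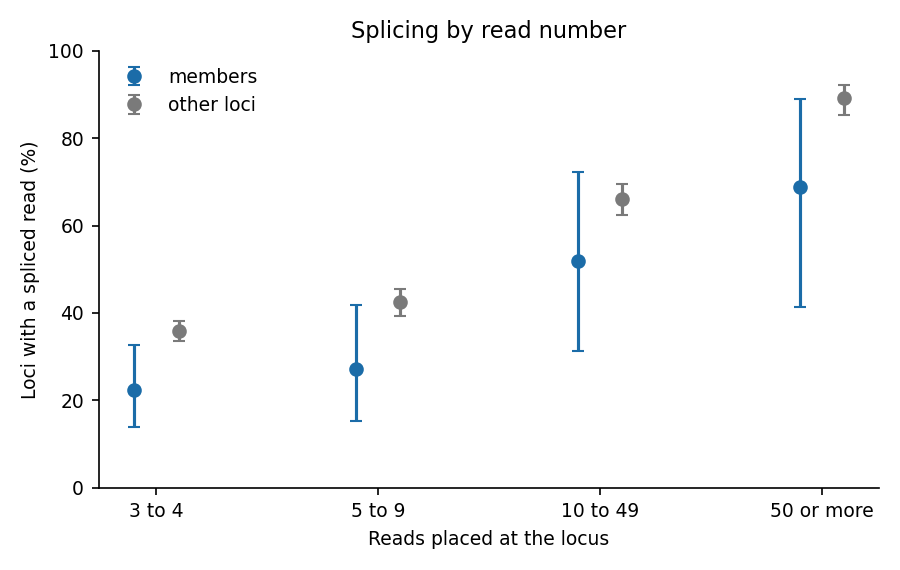
The percentage of loci with at least 1 spliced read is plotted for members (blue) and other loci with at least 3 reads (grey) in 4 classes of read number, with exact 95% intervals as bars. Members lie below other loci in each class, from 22.4% against 35.8% to 68.8% against 89.2%.

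The lower share was seen on the numbered sequences and on NA taken separately. On the numbered sequences 36.2% of 138 members were spliced (interval 28.2 to 44.8), against 49.6% of 3415 other loci (interval 47.9 to 51.3). On NA the shares were 16.7% of 36 members (interval 6.37 to 32.8) and 29.4% of 262 other loci (interval 23.9 to 35.3), and these intervals overlap. Among members with all reads tied 27.1% of 48 were spliced, and among those with none tied 32.2% of 90, with overlapping intervals (15.3 to 41.8 and 22.8 to 42.9). The median of the aligned bases per read was 194.5 in members and in other loci. Reads aligned over fewer than 50 bases by the median at 6 members (3.45%, interval 1.28 to 7.35), where 2.39% of all loci with at least 3 reads had so few. None of these 6 members, which held 24 reads, was spliced. Whether short or repeated places account for the lower share of splicing was not tested.

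The member with the most reads was a nearly intronless locus with a near-copy of equal extent. The locus on sequence 6 at 7308778 to 7310439 had 44 reads with a single place, 2661 with 2 to 5 and 1509 with more than 5, and 3 of its 4214 reads had a gap of at least 20 bases, none with a splice direction. Its main copy, on NA at 6688923 to 6690584, had 3116 reads and runs in the opposite orientation. The 2 loci shared 6949 reads, of which 4034 were placed on sequence 6, 2915 on NA, and 916 of these scored equally at both. Nearly every read of either locus therefore listed the other.

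Differences between copies were read from the alignments themselves. A position was called different where at least 3 untied reads, and at least 80% of them, matched the copy at which they were placed and mismatched the other. Only substituted bases count here, and inserted or missing bases do not. The compared positions are those of the listed places of shared reads, which can run past the ends of a locus. Over 1660 compared positions of the sequence 6 and NA copies, 24 differed as seen from the reads of both loci and 1 more from those of sequence 6 only, 1.51% in all. The differing positions at 859 and 909 bases from the start of the sequence 6 locus lay at 799 and 736 bases on NA. The copies thus also differed in length between these positions, which the 1.51% leaves out. Both versions were read at the 24 positions. At 12 bases from the start of the sequence 6 locus, 7 untied reads placed there and 14 placed on NA covered the position. At 672 bases the numbers were 780 and 366, of which 775 and 358 mismatched the other copy, and at 1534 bases they were 174 and 34. The ratio between the versions thus varied along the locus: the NA version had more reads at the first of these 3 positions and fewer at the other two.

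Of 4787 reads that cover at least 2 of these positions, 3266 carried only the sequence 6 version, 1472 only the NA version and 49 (1.02%) a mixture. The unmixed reads were 68.9% of the sequence 6 kind (interval 67.6 to 70.2). The same bases decided where a read was placed, so this division describes the reads and is no separate check of the placement. How the mixed reads arose was not tested.

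**Figure D3:**
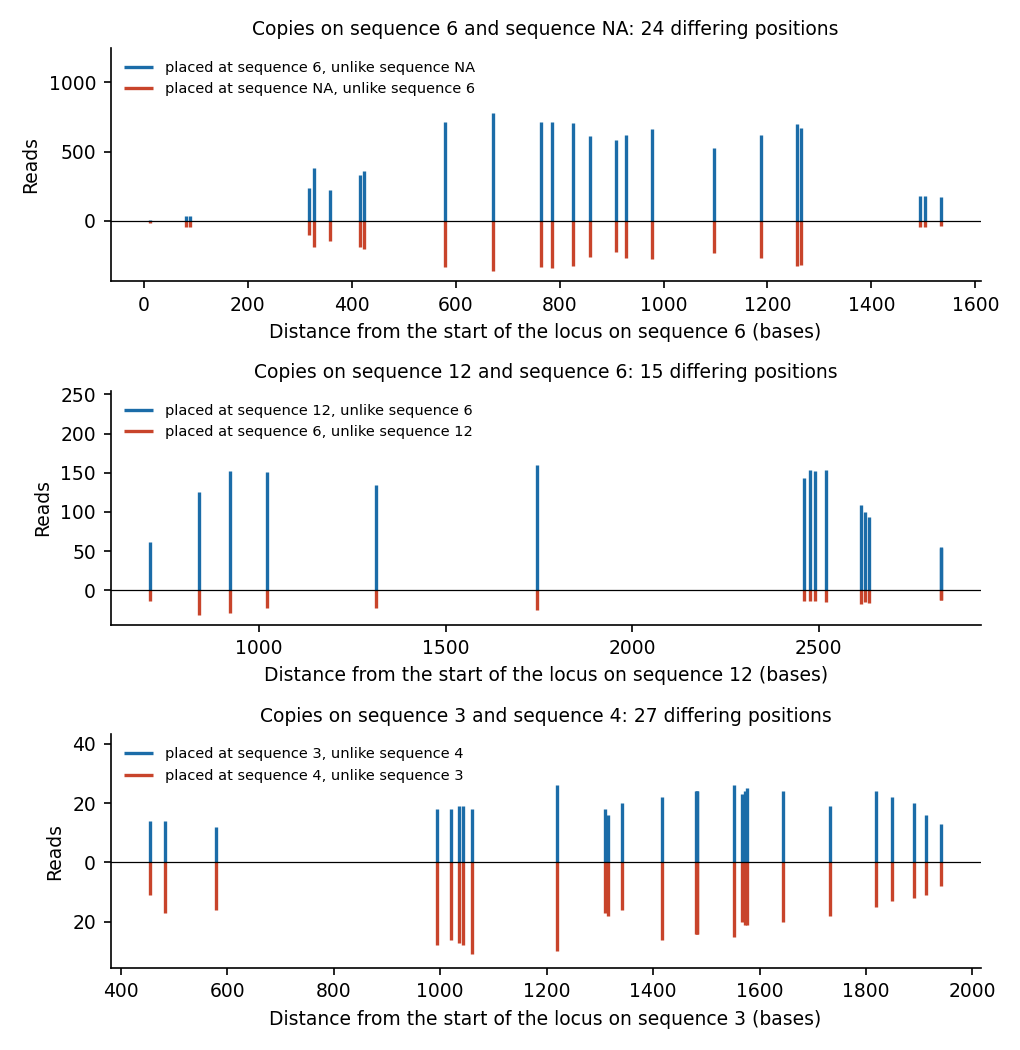
Vertical lines mark the positions that differ between copies, as distance in bases from the start of the first-named locus. Upward blue lines count reads placed at the first locus that mismatch the second, and downward red lines count reads placed at the second that mismatch the first, for 24, 15 and 27 positions in the 3 pairs shown.

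The sequence 6 locus had further, much less read copies. Its reads were also listed at loci on sequence 4 at 718221 (23 reads placed, 2737 shared), on sequence 14 at 2801578 (67 placed, 1532 shared) and on sequence 13 at 6407953 (29 placed, 1426 shared). The differences from these copies made up 1.69%, 1.45% and 1.42% of the compared positions, which covered only parts of the locus (1004, 482 and 493 positions). Nearly all of these differences were seen from reads of sequence 6 alone, since few untied reads were placed at the other copies (12, 4 and 7). A short member on NA at 514184 to 514344 held 6 reads, and the copies there differed at 8 of 185 positions (4.32%). The compared stretch runs past this member, which spans 161 bases. Another 332 reads of the large locus listed a further place within the same locus.

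The next member in size was a spliced locus with 2 well-read copies. The locus on sequence 12 at 1838376 to 1841488 had 1754 reads, 561 of them spliced, with a transcript on the minus strand. Its copy on sequence 6 at 1901720 to 1905000 had 260 reads, 61 of them spliced, with a plus-strand transcript. They shared 1194 reads, 1058 placed on sequence 12 and 136 on sequence 6, and 241 scored equally. Over 1422 compared positions, 18 differed (1.27%), 15 of them seen from both sides. Of 448 reads with at least 2 of these positions, 384 carried the sequence 12 version, 60 the sequence 6 version and 4 (0.893%) a mixture. Both copies thus gave reads of their own, with 86.5% (interval 83.0 to 89.5) of the unmixed reads from the sequence 12 version.

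The introns of this pair sat at the same places in the reads but had different lengths. In 4 shared introns, seen in 120, 143, 132 and 32 reads, the lengths on sequence 12 and on sequence 6 were 192 and 212 bases, 150 and 212, 252 and 168, and 145 and 115. Neither copy had the longer introns throughout.

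Gaps without a counterpart were seen on both sequences of this pair. On sequence 12, 3 shared reads had a gap of 208 bases at 1841205 to 1841412 and none at the matching point on sequence 6. On sequence 6, at 1902568 to 1902681, 114 bases long, 117 shared reads had a gap at the sequence 6 place and none at the matching point on sequence 12. Of the reads placed on sequence 6, 18 had this gap, all with GT-AG borders, and 1 read ran through it. A total of 128 reads placed on sequence 12 had the gap at their sequence 6 place, and 47 of these had no gap at all on sequence 12. In the alignments, the sequence 6 copy thus held 114 bases at this point that reads of both copies skip and that the sequence 12 copy did not have. The third locus joined to this pair, on sequence 2 at 3630857 to 3630888, rests on 1 shared read. Its 3 reads aligned over a median of 31 bases at 79.3% identity, so they do not establish that it belongs to the family.

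A balanced pair lay on sequences 3 and 4. The locus on sequence 3 at 5007406 to 5009661 held 226 reads and that on sequence 4 at 904929 to 907092 held 245, in opposite orientation. They shared 297 reads, 13 of them with equal scores. All 27 differences over 1373 positions (1.97%) were seen from both sides, and 113 and 121 reads carried the 2 versions unmixed, with 5 of 239 (2.09%) mixed. The sequence 3 version made up 48.3% of the unmixed reads (interval 41.7 to 54.9), so the copies were not distinguishable in read number at this depth. An intron had 240 bases on sequence 3 and 239 on sequence 4 (11 reads), and another 197 and 218 (29 reads).

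On sequence 17, linked copies were spread between 641678 and 937358. The member at 931191 to 933506 had 301 reads, 130 of them spliced, and 96 tied reads. Its neighbour at 935071 to 937358, with 1159 reads, started 1564 bases past its end in the opposite orientation. The pair shared 380 reads, 95 with equal scores, and differed at 12 of 685 positions (1.75%). Introns of 257 and 250 bases (107 reads) and of 216 bases in both (121 reads) were seen in the shared reads.

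The copy at 690404, 238350 bases away in the same orientation, held 700 reads and shared 280, and 15 of 588 positions (2.55%) differed from the member. The matching introns were 255 and 257 bases (100 reads), and 169 and 216 bases (80 reads). An intron of 132 bases at 692429 to 692560 was seen in 44 reads placed at 690404, all with GT-AG borders, and 13 shared reads had it there but no gap at the matching point of the 931191 locus. Of the shared reads compared, 181 had gaps at both places and 3 at 690404 only. Most of the 13 reads thus had a gap elsewhere at 931191. The small member at 663725 (4 reads) differed at 8.72% of 298 positions and shared 66 reads with the 931191 locus, where the corresponding intron had 257 bases in place of 205 (25 reads). The compared stretch runs past this small member, which spans 224 bases, and the 205-base intron lies past its end. In 5 of the shared reads the 216-base gap, and in 2 the 257-base gap, was seen at 931191 only. The locus at 641678 differed from that at 931191 at 26 of 260 positions (10.0%). The share of differing positions, each over its own stretch, was thus lowest for the neighbouring locus and highest for that at 641678.

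On sequence 2, members at 6035832 (86 reads) and 6041122 (120 reads) lay 3713 bases apart in the same orientation and shared 102 reads. They differed at 29 of 625 positions (4.64%). Of 78 reads with at least 2 of these positions, 26 carried the first version, 50 the second and 2 were mixed. All 3 shared introns differed in length, at 204 and 238 bases, 228 and 329, and 138 and 145, in 31, 37 and 31 reads. Members on sequence 16 at 503115 (30 reads) and sequence 12 at 6240118 (6 reads, 79.2% identity over a median of 32.5 bases) were counted in the same group through single reads. The sequence 12 locus shared 1 read with 6041122 and 1 with the sequence 16 locus, and the sequence 16 locus shared none with the sequence 2 members. The sequence 16 locus shared 9 reads with a locus 9372 bases away on its own sequence.

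Smaller groups had regular spacing, with introns of equal or unequal length. On sequence 17, 6 members between 2201993 and 2223959 held 87 reads. The places of their shared reads lay a median of 18125 bases apart (58 places, range 18089 to 18138), so that all listed pairs of places had nearly the same distance, in the same orientation. Loci that neighbour each other there can be pieces of 1 transcript. Introns seen at both places there had equal lengths in some cases, as with 420 bases (4 reads), and unequal lengths in others, as with 231 and 244 bases (6 reads). On sequence 2, members at 9566258 (59 reads, none tied) and 9563777 (7 reads, all tied) had places 5963 bases apart for every shared read counted (12 places). A shared intron of 244 bases (7 reads) had the same length in both. With the small loci at 9562862 and 9563257, the member at 9566258 shared an equal intron of 127 bases (7 reads) and unequal ones. The unequal ones had 188 bases at 9562862 against 149 (3 reads), and 164 at 9563257 against 183 (2 reads).

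On sequences 12 and NA, members at 378845 (38 reads) and 4708994 (25 reads, all tied) shared 28 reads and differed at 1 of 334 positions (0.299%). The locus on sequence 12 at 377935, outside the set, shared 33 reads with the same NA member. Of 5 introns seen at both places of these reads, 4 had equal lengths of 63, 58, 64 and 103 bases, and the fifth had 321 and 320. Reads can run past the loci: on sequence 12 the fifth, at 378866 to 379186, lies within the member at 378845. On NA those of 63 and 58 bases lie before the start of the member. In contrast to the pair on sequences 12 and 6, these introns differed by at most 1 base.

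The remaining of the 10 groups with the most reads had no spliced read. On sequence 8, the member at 4141064 to 4141553 had 82 reads, none tied and none with a single place. All 82 were also listed on sequence 14 at 4095971, a member with 4 reads, and 81 at 4103608, where the copies differed at 2 of 476 and 1 of 470 positions. The stretch compared with the locus at 4103608 runs past that locus, which ends at 4103793 and holds 1 placed read. A locus on sequence 14 at 4027759, outside the set with 7109 reads, shared 290 reads with the sequence 8 member and 220 with the member at 4095971. Of these 290 reads, 208 were placed at 4027759 and scored equally on sequence 8. Over 472 compared positions, 0 substituted bases between these 2 loci were called, and inserted or missing bases were not counted. All 82 reads placed on sequence 8 scored higher there, so the copies are not shown to be identical. The lack of tied reads at the sequence 8 member thus holds only for the reads placed there. A group of 6 small members on sequences 12, 4 and NA held 37 reads.

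Other linked pairs with many shared reads differed in ties and distance. On sequence 12, the member at 5320941 (120 reads, 117 tied) shared 224 reads with a locus at 5323624 (355 reads), which lies 1320 bases past its end in the opposite orientation. An intron of 145 bases had equal length in both (47 reads), and another had 384 and 411 bases (18 reads). Also on sequence 12, the member at 6949120 (127 reads) and the locus at 7755013 (133 reads) were 803219 bases apart in opposite orientation. They shared 140 reads and differed at 19 of 1350 positions (1.41%), with 33 and 41 reads unmixed and 1 mixed. On sequence 8, the member at 2496071 had 51 reads, all tied, and 3357 reads placed at the sequence 14 locus at 4027759 listed it too, 3333 of them with equal scores. The reads of this member aligned over a median of 51 bases, with a median aligned share of 39.1% and identity of 92.2%. They are partial alignments and do not establish an identical copy.

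The member on sequence 6 at 4072410 had only 3 reads but was listed by reads of several better-read loci. It shared 140 reads with the locus on NA at 6672998 (822 reads), 138 of them placed there, with 34 differences over 634 positions (5.36%). The member spans 215 bases, so most of these positions, and the 228-base gap named below, lie past its ends. In 8 shared reads a gap of 214 bases was seen on NA and none at the matching point on sequence 6, although 77 reads had introns of 228 and 214 bases there at both places. With the locus on sequence 3 at 1138877 (186 reads) it shared 25 reads and differed at 8.97% of 457 positions. In 15 of these, an intron of 133 bases at 1140016 to 1140148 was seen on sequence 3 and no gap at the matching point on sequence 6. The intron was spliced in 25 reads placed on sequence 3, all with GT-AG borders. In 7 of the shared reads, a gap of 228 bases was seen on sequence 6 and none at the matching point on sequence 3. A further gap of 128 bases on sequence 3, at 1140340 to 1140467, had no match in 4 reads. Matching points had to lie within 3 read bases. Of the shared reads compared, 6 had gaps at both places, 13 on sequence 3 only and 1 on sequence 6 only. Most reads with the unmatched 228-base gap thus had a gap elsewhere on sequence 3, so they do not show that sequence 3 lacks an intron.

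Over all linked loci, introns at the same point of a read had equal lengths in some pairs and unequal lengths in others. In 35 pairs of loci, 67 introns, here gaps of at least 20 bases with or without a splice direction, were seen by at least 2 reads at both places. Their lengths were equal in 28 (41.8%, interval 29.8 to 54.5), differed by 1 to 5 bases in 12 and by more than 5 in 27 (40.3%, interval 28.5 to 53.0). The largest difference was 101 bases. Pairs within a family repeat some introns, so the 67 are not independent. In some pair, 13 distinct gaps were seen at 1 place only by at least 2 reads. Of these, 6 were also seen at both places by other reads or in other pairs, and 7 were not. An example of equal introns is the member on sequence 7 at 5552816, all of whose 15 reads were tied. It shared 14 reads with the member on sequence 12 at 4559943, and their introns had 281, 94 and 798 bases at both places (4, 2 and 7 reads).

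**Figure D4:**
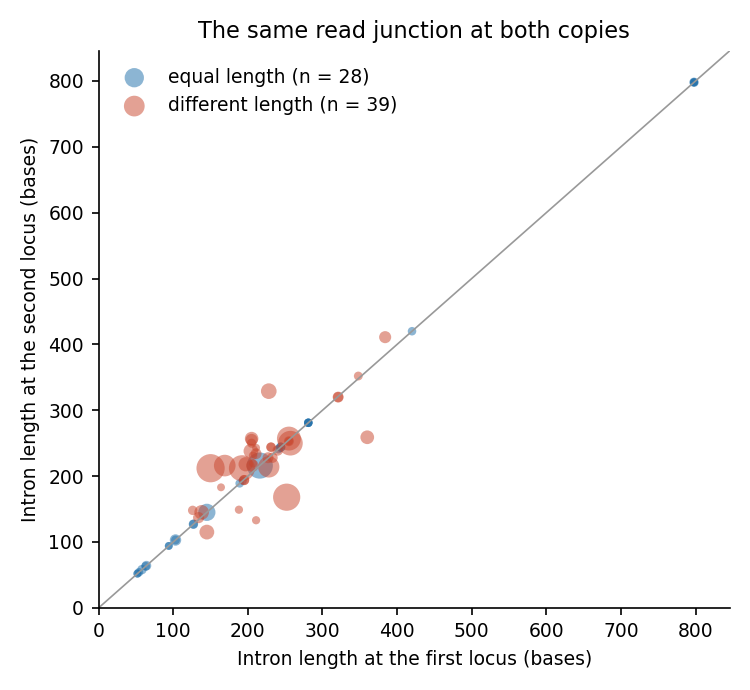
Each of 67 points is an intron seen at both copies, with its length in bases at the first locus on the horizontal and at the second locus on the vertical axis. The area grows with the number of reads, the line marks equal length, and 39 points lie off it.

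The positions of differences were regularly spaced in a few of the pairs compared. Where 2 consecutive differences had no gap between them, their distance was divisible by 3 in 15 of 15 cases for the sequence 12 pair at 6949120 and 7755013 (interval of the share 78.2 to 100), in 21 of 25 for the sequence 3 and 4 pair (63.9 to 95.5), and in 9 of 12 for the sequence 12 and 6 pair (42.8 to 94.5). It was also divisible in 9 of 12 for the copies at 690404 and 931191 on sequence 17 (42.8 to 94.5), where 12 of the differences were seen from the reads at 690404 only. Differences that all sit at the same codon position of an exon have such distances. Without any such pattern, about 1 distance in 3 is divisible by 3. In the nearly intronless pair of sequences 6 and NA it was so in 6 of 21 cases (11.3 to 52.2), in the sequence 2 pair in 6 of 25 (9.36 to 45.1), and between 931191 and 935071 in 1 of 9. The spliced pairs thus included high and low shares. Some differences were adjacent, and their distances are not divisible by 3. Such runs lay 1533 to 1537 bases from the start of the locus at 6035832 on sequence 2, and at 2092 to 2094 bases at 931191. In the sequence 3 and 4 pair a run lay at 1481 to 1483 bases. Differences within a run were counted separately. The share in the other pairs compared ran from 9.09% (sequence 4 at 718221 with the large sequence 6 locus) to 57.1% (663725 with 935071 on sequence 17), and most lay below 40%. Reading frames were not assigned.

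Reads with a single place were not spread evenly along the spliced members. Along 9 spliced members with at least 50 reads, at least 20 of them with a single place, the share of reads with a single place was taken by position of the read from 5' to 3' of the transcript. In the last 20% of the span it was 97.7% of 438 reads (interval 95.8 to 98.9) at 1838376 on sequence 12, 98.6% of 74 at 931191 on sequence 17, and 97.1% of 35 at 6949120 on sequence 12. At 1901720 on sequence 6 it was 80.3% of 137, at 904929 on sequence 4 77.2% of 79, and at 5007406 on sequence 3 70.4% of 81. The sequence 2 loci at 6041122 and 6035832 had 79.2% of 72 and 100% of 15. In these 8 members most reads near the 3' end had no second listed place.

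The remaining member, at 9566258 on sequence 2, had the opposite order. Its share was 1 of 10 reads in the last 20% of the span, and 23 of 34 reads in the 5' part of the span, divided at 50%, against 3 of 25 in the 3' part. For comparison, at 1838376 on sequence 12 the shares of the 5' and the 3' part were 25.7% (interval 22.4 to 29.2) and 46.5% (interval 43.5 to 49.5), and at 931191 on sequence 17 they were 4.12% (interval 1.67 to 8.30) and 89.3% (interval 82.7 to 94.0). At 6949120 on sequence 12 they were 34.9% and 40.5%, with overlapping intervals (21.01 to 50.9 and 29.9 to 51.7). The first 10% of the span was also high in several members. The share there was 76.0% of 192 reads at 1838376, 12 of 12 at 6949120, 6 of 9 at 931191, 6 of 6 at 5007406, 7 of 7 at 9566258, 3 of 6 at 6035832 and 2 of 2 at 1901720. It was 0 of 14 at 904929 and 0 of 10 at 6041122. All but the first rest on few reads. In the nearly intronless locus on sequence 6, whose direction splicing does not give, 44 of 4214 reads had a single place, none of them among the 222 reads of the last 20% along the sequence.

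**Figure D5:**
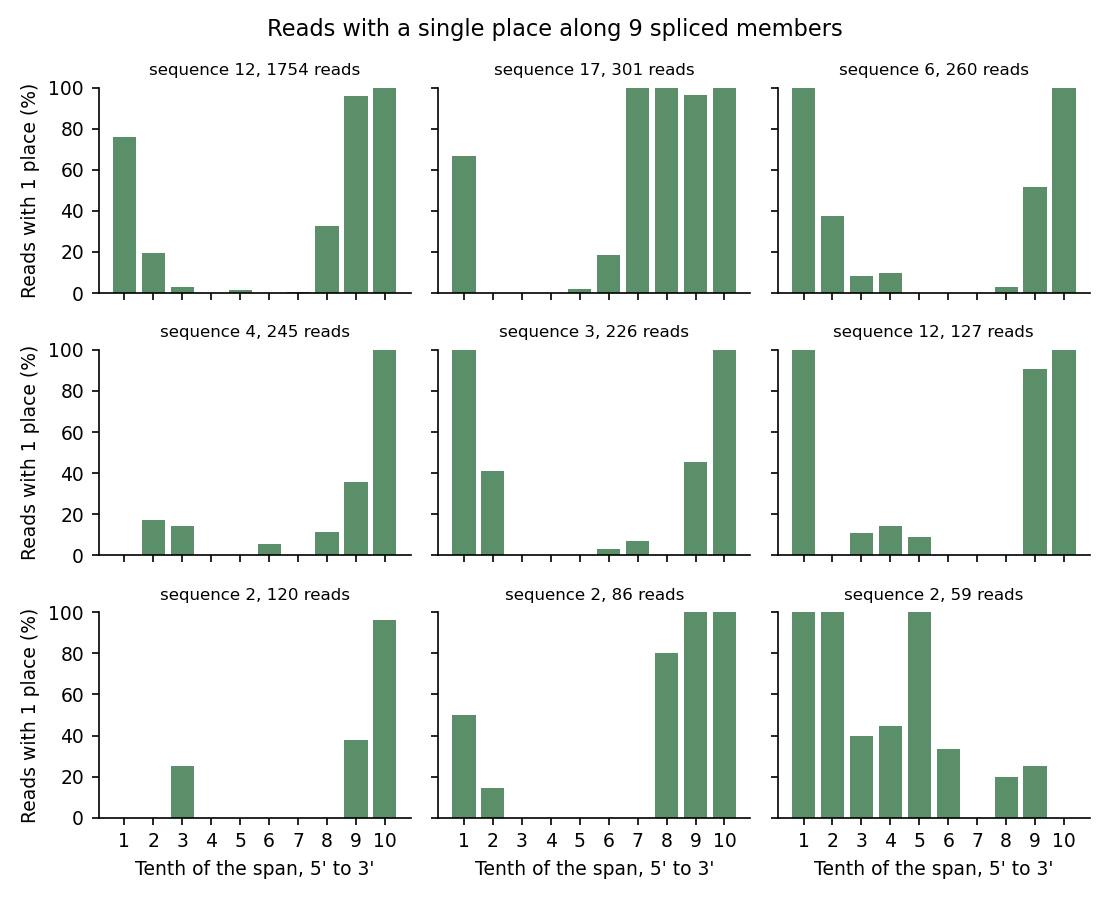
For 9 spliced members, bars give the percentage of reads with a single place in each 10% of the locus span, from the 5' to the 3' side of the transcript. The bars nearest the 3' end are high in 8 panels, whereas the sequence 2 member with 59 reads falls toward its 3' end. The fourth bin of the sequence 2 member with 86 reads holds no read.

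Among members linked to no locus that held reads, the 5 with the most reads had 10 to 17. On sequence 5 at 2521244, 17 reads included 7 spliced ones, and 10 listed a place at 2547323, which is 24022 bases away in the same orientation, with a median score lower by 0.777 points. On sequence 1 at 6210233, all 15 reads were tied with 6461906, a distance of 250431 bases, and 13 had gaps at both places. Its neighbours at 6207968, 6209065 and 6209529, also unlinked members, were tied with 6459641, 6460738 and 6461202, in the same order. Such neighbours can be pieces of 1 copied stretch, although the counts and intervals treat them as separate members. On NA at 5229603, 11 of 15 reads listed 5224577, with a score lower by 4.68 points. On sequence 12 at 1932708, all 14 reads listed a place 1009 bases away in the opposite orientation, with a score lower by 2.37 points. On NA at 5977676, all 10 reads listed 5992343, also in the opposite orientation. Of the 59 members of this kind, 39 had no tied read, so that their reads preferred the member although another place was listed.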

How the data were processed

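The authors deposited raw alignment records, in no expression unit, per the file headers: 1 record for each place of a read, with identity, aligned share, positions, exons and edits. They were made with GMAP version 2007-09-28 with options K and L at 1000 bases, per the file headers. GSNAP is named in the submitters' processing notes. At most 5 places are listed per read, so further copies cannot be seen, and reads without a place are absent. PCR, digestion and size selection came before sequencing, so read numbers are not molecule numbers.

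The 174 loci, the rule for them and the measures were chosen with earlier results of these data known. Groups came from the labels, and the nitrogen-deprived library was not analysed here. Tied reads stayed at the first listed place. Gaps of at least 20 genome bases were called introns. Matching junctions had to lie within 3 read bases and be seen in at least 2 reads. Differences between copies were read from the deposited edits of untied reads, for pairs with at least 10 shared reads, and 31 of 400259 exon records whose edits and lengths disagree were skipped. Substituted bases were counted, whereas inserted and missing bases were not.

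Loci are named by position. Named were the 10 linked groups with the most reads, the 3 pairs with the most shared reads in each class of distance, the 5 pairs with the most reads spliced at a single place, and the 5 unlinked members with the most reads. Loci at the limit of the rule, the largest tied members, and the pair on sequences 7 and 12 with equal introns were added after their values were seen.

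With 1 library no test was run. Shares carry exact Clopper-Pearson intervals, and the depth of 239585 reads leaves a locus with 3 reads a wide interval. The steps were run on simulated records. In these, 120 of 120 member loci, 60 of 60 links, 354 of 360 differences and 30 of 30 introns were recovered. Of the single-copy loci, 0 of 60 were called. In 20 of 20 simulated identical pairs all reads stood at the first listed place. The places and path totals were written into these records, without read errors. The run therefore checks the code and does not measure how well copies are found in real reads. Alternatives changed the placing score, ties, alignment quality, duplicates, strand, path totals, share, read minimum and linking. A further 3, a minimum score for linking places, leaving out the largest member and leaving out members under 50 aligned bases, were chosen after seeing the data. The scripts ran in Python 3.11.15 with scipy 1.17.1 for intervals, numpy 2.4.6 for medians and matplotlib 3.10.9 for figures.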

Additional observations from a re-analysis of the deposited data

Results flagged for a closer look

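Most reads with 2 to 5 places lay outside the members, and they are given here because the comparisons do not use them. Of 22790 such reads, 5983 (26.3%) lay in members and 16807 in other loci. The locus on NA at 199496 to 200235 held 6549 of them, which is 7.15% of its 91607 reads. The locus on sequence 14 at 4027759 held 2275 (32.0% of 7109 reads), and that on NA at 6688923, the near-copy of the largest member, held 1472 (47.2% of 3116). A further 1043 lay on sequence 14 at 3203887 (42.6% of 2451 reads) and 646 on NA at 4069771 (33.9% of 1903). In all, 1468 loci outside the set held such reads. With 1 library there is no control level for these reads.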

How the results depend on the processing

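No paired analysis was possible because the condition analysed has 1 library. The 174 members became 109 without tied reads, 345 when more than 5 places also counted, 96 when 80% of the reads had to be repeated and 41 with at least 10 reads, and the linked groups became 12, 26, 10 and 6. Members held 3.75% of the reads, but 3.93% by first listed place, 4.07% without ties, 14.9% under the limits of 95% identity and 90% aligned share, 10.3% with duplicates counted once, 4.44% with strands apart, 10.7% with more than 5 places, 0.503% at 80%, 3.51% with at least 10 reads and 1.995% without the largest member. The share of members linked to another member moved from 34.5% to 42.97% under the quality limits, 53.3% with more than 5 places and 27.1% at 80%. The spliced share moved from 32.2% to 48.4% under the quality limits, 23.5% with more than 5 places and 58.5% with at least 10 reads. Other loci moved to 61.9%, 49.8% and 73.8% there, so the members' share was the lower there, as it was under the other 7 alternatives that change which loci are compared. Pairs on 1 numbered sequence moved from 27.9% to 21.9% by first listed place, 17.3% without ties, 43.97% under the quality limits, 14.9% with more than 5 places, 46.3% with at least 3 shared reads, 39.6% through places with at least 90% of the best score and 34.5% without short members. The cause of these shifts was not tested. Of the 174 members, 106 overlapped a member without ties, 106 under the quality limits, 160 with duplicates counted once, 170 by first listed place and 125 with strands apart. Depth limits the 133 members with 3 to 9 reads most, and copies with fewer than 3 untied reads give no differences.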
